A study of Mus musculus with 22 samples.

Results

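Thrombospondin transcripts were followed across all 22 RNA-seq libraries of the *Phf8* knockout (KO) study. The family has 5 genes in the mouse, *Thbs1*, *Thbs2*, *Thbs3*, *Thbs4* and *Comp*, and all 5 were found by Ensembl gene identifier among the 39179 genes counted in each library. They were chosen by the counts of *Thbs4* in prefrontal cortex (PFC), where its fall from wild type (WT) to KO was among the largest. The PFC values of the family are therefore given as a description, without a test. The question left for testing was whether *Thbs4*, or any relative, also differed in the other 3 sample types.

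PHF8 is an X-linked histone demethylase that removes repressive methyl marks. The KO allele lacks a pair of exons in the catalytic domain and was kept on a mixed background, labelled B6x129SvJ. WT and *Phf8* KO samples came from embryonic stem cells (ESCs, 2 WT and 2 KO), which had been derived from blastocyst outgrowths and kept on gelatin or feeder cells. Neural progenitor cells (NPCs, 3 and 3) came from E16.5 embryos and grew as a monolayer. Ventral striatum (STR, 3 and 3) and PFC (3 and 3) were dissected from mice aged 2 months. Every group shared this background, and nothing in the labels says whether replicates came from separate animals or cultures, so the p-values measure the spread between these samples, which may be technical.

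Thrombospondins are secreted, calcium-binding glycoproteins of the extracellular matrix. Thrombospondin-1 and -2 form trimers and carry the repeats that bind CD36, whereas thrombospondin-3, thrombospondin-4 and COMP (cartilage oligomeric matrix protein) form pentamers and lack those repeats. In the developing brain, thrombospondins released by astrocytes promote the formation of excitatory synapses, with the calcium channel subunit encoded by *Cacna2d1* as a neuronal receptor. Other partners are CD47, integrins, and LRP1, which clears thrombospondins from the cell surface.

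The genes are spread over 5 chromosomes of GRCm38. *Thbs4* (ENSMUSG00000021702) lies on the minus strand of chromosome 13 from 92751590 to 92794818. *Thbs1* (ENSMUSG00000040152) lies on the plus strand of chromosome 2 from 118111876 to 118127133, and *Thbs2* (ENSMUSG00000023885) on the minus strand of chromosome 17 from 14665500 to 14694235. *Thbs3* (ENSMUSG00000028047) occupies the plus strand of chromosome 3 from 89215180 to 89226837, and *Comp* (ENSMUSG00000031849) the plus strand of chromosome 8 from 70373558 to 70382066. *Thbs3* overlaps *Mtx1* on the opposite strand, and the ESC and NPC counts did not use strand, so reads in the overlap cannot be assigned to either gene with certainty. The strand setting of the brain counts is not given in the sources used here.

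The 250 bases before the start of transcription are printed for the 3 members with a RefSeq entry (GRCm38.p6), because PHF8 is known to bind at promoters rich in CG dinucleotides and these windows show how unlike each other the family's promoters are. Each is written 5′ to 3′ along its gene, with every CG in capitals. They lie at chr13:92794819-92795068 (minus strand) for *Thbs4*, at chr17:14694263-14694512 (minus strand) for *Thbs2* and at chr3:89214930-89215179 (plus strand) for *Thbs3*.
Thbs4: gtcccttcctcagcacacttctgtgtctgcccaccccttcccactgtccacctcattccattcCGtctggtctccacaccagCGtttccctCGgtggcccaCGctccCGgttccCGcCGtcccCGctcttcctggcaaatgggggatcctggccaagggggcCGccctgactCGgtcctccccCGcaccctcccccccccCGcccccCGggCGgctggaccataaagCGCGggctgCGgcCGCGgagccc
Thbs2: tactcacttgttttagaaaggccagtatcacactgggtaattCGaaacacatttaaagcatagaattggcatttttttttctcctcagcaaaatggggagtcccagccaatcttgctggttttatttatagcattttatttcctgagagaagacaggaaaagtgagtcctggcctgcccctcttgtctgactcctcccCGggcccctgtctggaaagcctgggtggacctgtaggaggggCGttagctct
Thbs3: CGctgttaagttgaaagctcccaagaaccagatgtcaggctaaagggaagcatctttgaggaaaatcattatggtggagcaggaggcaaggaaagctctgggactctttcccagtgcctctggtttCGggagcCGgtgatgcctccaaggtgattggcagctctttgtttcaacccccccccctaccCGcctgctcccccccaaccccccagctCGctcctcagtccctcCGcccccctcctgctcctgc
The *Thbs4* window held 19 CG dinucleotides, a number that 19.7% of 32851 mouse promoter windows of the same length reached. *Thbs3* held 6, which is the median of all windows, and *Thbs2* held 3, which 71.0% of windows reached. G and C made up 70.8% of the letters of *Thbs4*, 58.8% of *Thbs3* and 46.8% of *Thbs2*. The letters TATAAA on either strand were found in the *Thbs2* window alone among the 3, and in 12.4% of all windows. These letter counts describe the windows and say nothing of PHF8 binding in these samples, which was not measured here. *Thbs1* and *Comp* are named only.

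Between 5898286 and 15539811 reads per library were counted on genes. Levels are CPM (counts per 1000000 counts on genes) after TMM scaling, a correction for library composition, and a floor of 3 counts corresponds to 0.193 to 0.509 CPM. *Phf8* itself, the targeted gene, was lower in every KO library: it lay between 38.4 and 70.3 CPM over the 11 WT libraries and between 13.4 and 22.2 CPM over the 11 KO libraries. Marker genes followed the labels. The summed CPM of 7 striatal neuron markers was 1195 to 1605 in STR and 190 to 218 in PFC, that of 5 excitatory cortical neuron markers was 1387 to 1857 in PFC and 614 to 1128 in STR, and that of 5 pluripotency markers was 2363 to 2890 in ESCs against at most 5.66 in NPCs. Some libraries stood apart. Over 6 hypothalamic markers, STR KO replicate 1 had 126 CPM and KO replicates 2 and 3 had 16.7 and 5.95 CPM. The 3 WT STR libraries had 1.32 to 3.41 CPM, so every KO sum lay above every WT sum. Among single genes in STR, 6.49% had every KO library higher. Leaving out KO replicate 1 thus does not make the groups alike in these markers. Replicate 2 of the ESCs, in both genotypes, was rich in fibroblast markers, and replicate 2 of the NPCs, in both genotypes, was poor in oligodendrocyte markers. For some of the results that rest on these libraries, values with 1 library left out are also given.

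*Thbs4*, a pentameric thrombospondin found in brain, muscle and tendon, was higher in every WT brain library than in any library of cultured cells. In WT PFC it measured 14.0, 15.7 and 12.2 CPM, from 127, 179 and 78 counts. In KO PFC it measured 3.07, 3.40 and 3.18 CPM, from 27, 31 and 26 counts. The 3 KO libraries lay close together and far under the lowest WT library. The mean was 14.0 ± 1.75 CPM in WT and 3.22 ± 0.17 CPM in KO (SD, n = 3 each), a log2 fold change of -2.13 with a standard error (SE) of 0.17, or 4.39-fold lower in KO. Across the 15364 genes fitted in PFC, 0.475% passed a false discovery rate (FDR) of 0.05 in this direction, and in 8.39% every KO library lay below every WT library. Since these libraries chose the gene, nothing is read from those shares. Among the genes that passed in PFC, the fall of *Thbs4* ranked second, between that of the gene model *Gm17552* (log2 fold change -2.24, at 1.67 CPM in WT) and that of *Gm14569* (-2.09, at 1.36 CPM in WT). Both of these neighbours in the ranking were named after their values were seen.

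In STR, a region that the choice did not use, *Thbs4* did not pass the test between KO and WT. It measured 6.12, 4.41 and 3.84 CPM in WT and 2.11, 2.98 and 4.30 CPM in KO, from 19 to 61 counts. The highest KO library lay above the lowest WT library, so the groups overlapped. The log2 fold change was -0.62 (SE 0.30, 95% interval -1.29 to 0.05), with an adjusted p = 0.609 in edgeR's quasi-likelihood test. The lowest KO value came from KO replicate 1, the library with the most hypothalamic marker RNA, and without it the log2 fold change was -0.41. Without WT replicate 1, the highest WT library, it was -0.40. The direction was that of the PFC. Whether PFC and STR differed in their response was not tested, because the PFC libraries chose the gene. None of the 15476 genes tested in STR passed the FDR (0% in either direction), and the lowest adjusted p was 0.0956 in edgeR. This test thus did not call *Phf8*, the targeted gene, either. At an unadjusted p under 0.05, 878 genes were higher and 468 lower. DESeq2 called 38 higher and 15 lower, with no thrombospondin among them.

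In the cultures *Thbs4* was near the limit of detection. NPCs held 9, 15 and 3 counts in WT and 7, 2 and 5 in KO, or 0.22 to 1.39 CPM against 0.16 to 0.62 CPM. The ranges overlapped widely. ESCs held 5 counts in each WT library and 9 and 7 in the KO libraries, or 0.50 and 0.43 CPM against 0.80 and 0.69 CPM. Both KO ESC libraries were thus above both WT libraries, a pattern shown in this direction by 11.5% of the 15080 genes tested in ESCs, but *Thbs4* itself was too low to enter the test in either culture. Fitted without the filter, the 95% interval of the log2 fold change ran from -2.56 to 0.64 in NPCs and from -0.71 to 2.03 in ESCs, on a few reads per library.

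**Figure D1:**
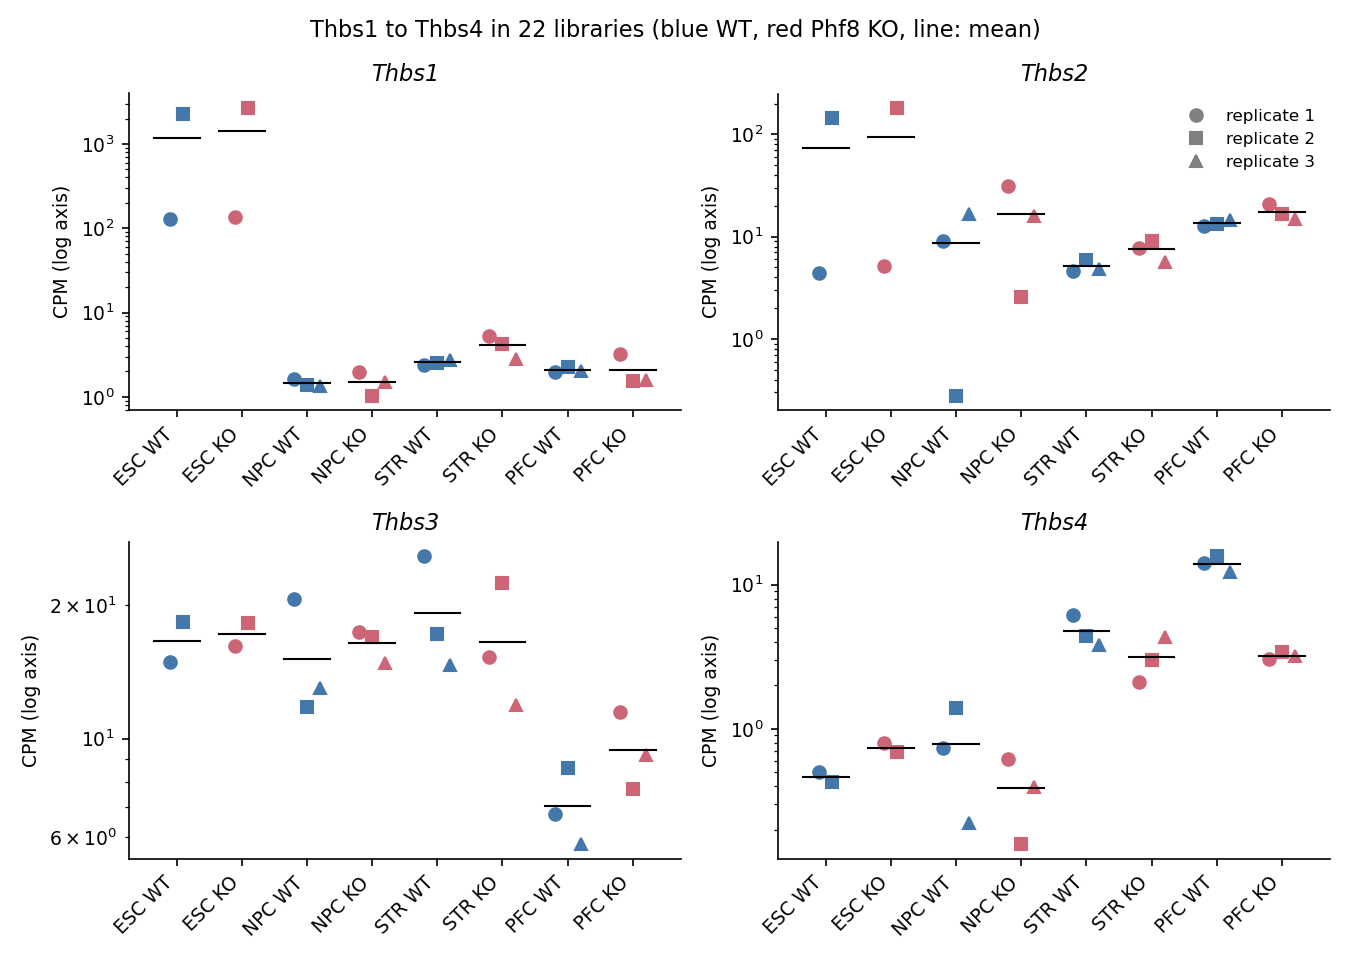
CPM of *Thbs1*, *Thbs2*, *Thbs3* and *Thbs4* (log axes) in each of the 22 libraries, by group, with WT in blue, *Phf8* KO in red, replicate numbers as symbols and the group mean as a line. The 3 KO PFC libraries of *Thbs4* lie at 3.07 to 3.40 CPM, under WT PFC (12.2 to 15.7 CPM) and WT STR (3.84 to 6.12 CPM) and within the range of KO STR, while *Thbs1* and *Thbs2* in ESCs separate by replicate number and not by genotype.

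To order the groups by level per transcript length, CPM was divided by exon length in kilobases (RPKM). *Thbs4* was highest in WT PFC, at 4.25 ± 0.53 RPKM. It followed in WT STR at 1.46 ± 0.36, in KO PFC at 0.979 ± 0.052 and in KO STR at 0.952 ± 0.336 (SD, n = 3 each). KO STR overlapped both WT STR and KO PFC, whereas every KO PFC library lay below every WT STR library. NPCs and ESCs followed at 0.119 to 0.238 RPKM in the mean of each group. Among these, the KO ESC libraries lay above those of KO NPCs and WT ESCs, on 9 counts or fewer in each, and WT NPCs overlapped the other 3 groups. WT PFC stood apart from WT STR with a log2 fold change of 1.51 (SE 0.20), again without a test for *Thbs4* because the same PFC libraries chose it. TMM factors were 0.83 to 0.91 in cultured cells and 1.08 to 1.19 in brain, so levels set between culture and brain move with this scaling.

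The family's make-up differed from tissue to tissue, and in PFC it differed between genotypes. Within WT PFC, *Thbs4* was the leading member and made up 48.1% to 53.7% of the summed RPKM of all 5 genes. In KO PFC its share was 13.6% to 18.4%, and *Thbs2* led with 37.8% to 43.1%, where it had 21.3% to 27.2% in WT. The summed level of the family was 8.27 ± 0.59 RPKM in WT PFC and 6.04 ± 0.72 RPKM in KO PFC (SD, n = 3 each). In STR, *Thbs3* led in both genotypes, with 56.0% to 64.4% in WT and 48.5% to 59.6% in KO, and *Thbs4* held 21.3% to 22.4% in WT and 11.0% to 25.7% in KO. *Thbs3* also led in the mean of the NPCs. In ESCs *Thbs1* made up 83.2% to 93.7%. These shares describe the libraries and were not tested, and a lower share of one member raises the others by construction.

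**Figure D2:**
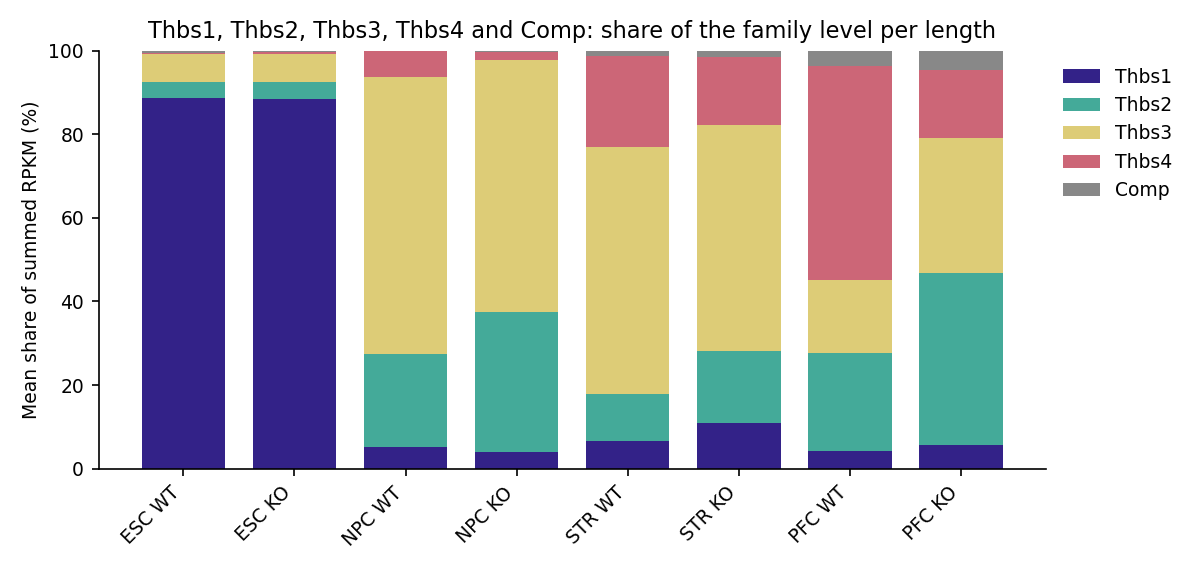
Mean share (percent) of each of the 5 genes in their summed RPKM, for the 8 groups. *Thbs1* fills most of the ESC bars, *Thbs3* leads in NPCs and STR, and *Thbs4* leads in WT PFC, where its mean share is 51.2% against 16.4% in KO PFC; single NPC libraries depart widely from their group mean.

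*Thbs2*, a trimeric thrombospondin made by astrocytes and fibroblasts, was the second most abundant member in WT PFC. It measured 12.6, 13.2 and 14.7 CPM in WT and 20.8, 16.8 and 14.9 CPM in KO. Every KO library lay above every WT library, by a small margin at the nearest pair, and the log2 fold change was 0.37 (SE 0.15). This held for 8.72% of all genes in PFC, and as a value of the contrast that chose the family it is given without a test. In STR it measured 4.61, 5.92 and 4.80 CPM in WT and 7.77, 9.06 and 5.70 CPM in KO. The groups overlapped there, and the log2 fold change of 0.57 (SE 0.23, 95% interval 0.06 to 1.09) had an adjusted p = 0.531. The highest value belonged to KO replicate 2, which also had the most RNA of 8 fibroblast and meningeal markers, 106 CPM against 26.6 to 53.2 CPM in the other 5 STR libraries, and whether those cells add to *Thbs2* was not tested. Without KO replicate 2 the log2 fold change was 0.40, and without KO replicate 1 it was 0.54. Between the regions of WT brain, *Thbs2* was higher in PFC than in STR, with a log2 fold change of 1.37 (SE 0.17, adjusted p = 1.8e-04), or 2.59-fold. Of 15555 genes tested between the WT regions, 24.4% passed the FDR, 13.0% of genes as higher in PFC, and in 21.9% every PFC library lay above every STR library. That call was lost when all 22 libraries were fitted together, with an adjusted p = 0.567 and a log2 fold change of 1.40.

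In NPCs the level of *Thbs2* varied more between replicate numbers than between genotypes. WT libraries held 9.10, 0.28 and 16.46 CPM and KO libraries 31.0, 2.54 and 15.9 CPM. Replicate 2 was the lowest of its genotype each time. The same 2 libraries were the lowest in 8 oligodendrocyte markers, with 222 CPM in WT and 421 CPM in KO against 1962 to 3246 CPM in the other 4, and whether the mix of cells sets the *Thbs2* level was not tested. The log2 fold change between KO and WT was 0.93 (SE 1.18, adjusted p = 1.0), with a 95% interval from -1.92 to 3.78. Without WT replicate 2 it was 0.37, and without KO replicate 2 it was 1.43. The widest values with 1 library left out were 0.10 (without KO replicate 1) and 1.80 (without WT replicate 3). With all 6 libraries and the replicate block, the log2 fold change was 1.06 (SE 0.55, adjusted p = 0.575 in edgeR). In NPCs 0.00697% of 14351 genes passed the FDR, which is the *Phf8* gene alone.

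*Thbs1*, the trimeric thrombospondin that activates latent TGF-beta and inhibits blood vessel growth, was scarce in brain. It measured 2.41, 2.55 and 2.76 CPM in WT STR and 5.32, 4.20 and 2.79 CPM in KO STR. All KO libraries were above all WT libraries, as were those of 6.49% of genes in STR, although the nearest pair stood at 2.76 and 2.79 CPM. The log2 fold change of 0.69 (SE 0.29, 95% interval 0.05 to 1.34) had an adjusted p = 0.540. It was 0.45 without the library with the most hypothalamic marker RNA, which had the highest value. In PFC it measured 1.99, 2.28 and 2.03 CPM in WT and 3.18, 1.54 and 1.59 CPM in KO, with overlap and a log2 fold change of -0.02 (SE 0.32). Without KO replicate 1 this became -0.44. In NPCs it lay between 1.03 and 1.94 CPM in all 6 libraries. The difference between the WT regions, a log2 fold change of -0.31 (SE 0.24), did not pass the test (adjusted p = 0.434).

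*Thbs3*, a pentameric member expressed in many tissues, was the most even of the 5. It measured 25.8, 17.2 and 14.6 CPM in WT STR and 15.3, 22.4 and 11.9 CPM in KO STR, with full overlap. In PFC it measured 6.75, 8.59 and 5.78 CPM in WT and 11.5, 7.69 and 9.18 CPM in KO, again with overlap, and a log2 fold change of 0.39 (SE 0.20). NPC and ESC libraries ranged from 11.8 to 20.7 CPM. Its log2 fold changes between KO and WT were -0.20 in STR (SE 0.27, adjusted p = 0.895), 0.12 in NPCs (SE 0.22) and 0.05 in ESCs (SE 0.20). The WT regions differed in the opposite sense to *Thbs2*, since *Thbs3* was lower in PFC than in STR by 1.45 on the log2 scale: the fitted value was -1.45 (SE 0.23, adjusted p = 0.0010). Every PFC library lay under every STR library, as did those of 17.6% of genes, and 11.4% of genes were called in this direction. That call held in all alternative fits.

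*Comp*, known from cartilage and tendon, was at or near the floor throughout. It had 0 to 12 counts in each of the 22 libraries and did not pass the filter on low counts in any of the 6 comparisons, so it was not tested there. Where no filter was set, or all 22 libraries were fitted together, it was lower in WT NPCs than in WT ESCs (log2 fold change -3.94, adjusted p = 0.0152, and -3.98, adjusted p = 0.0061), from at most 1 count in each NPC library and 5 and 8 in the ESC libraries. Its highest group mean was 0.87 ± 0.61 CPM in WT PFC, against 0.77 ± 0.48 CPM in KO PFC (SD, n = 3 each).

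**Figure D3:**
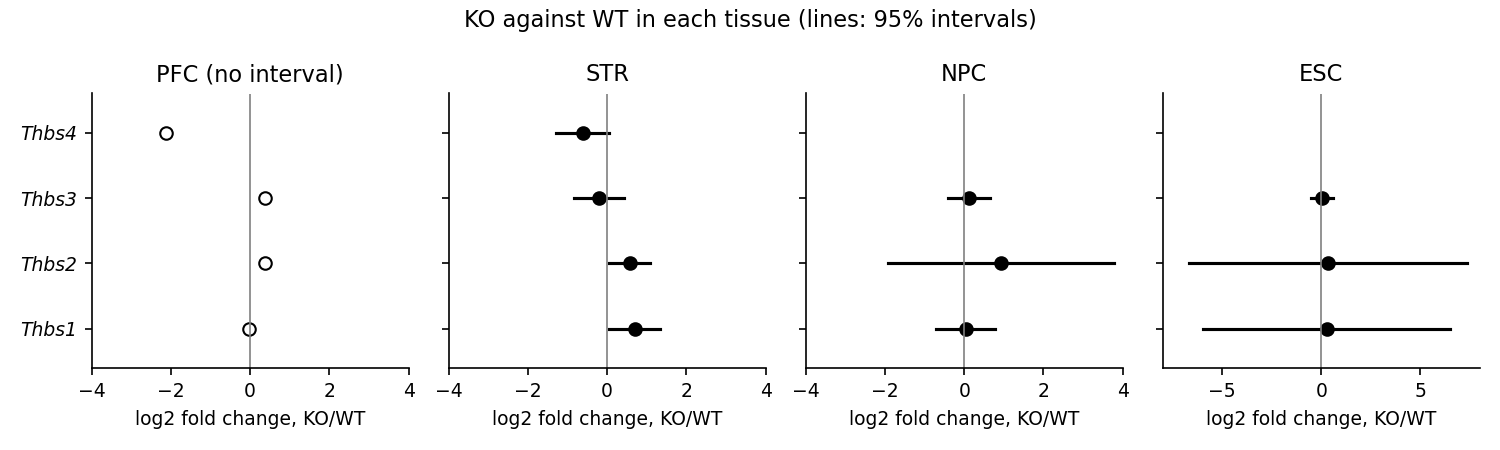
Log2 fold change (KO over WT) of the members that passed the filter on low counts in each tissue, with 95% intervals as lines. PFC values are open points without intervals because that contrast chose the family; every interval of STR, NPCs and ESCs belongs to a gene that did not pass the FDR, including the unadjusted intervals of *Thbs1* and *Thbs2* in STR that lie just above 0, and the ESC axis is wider to hold the intervals of *Thbs1* and *Thbs2*.

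Taking all members, 4 passed the filter in STR, 3 in NPCs and 3 in ESCs, and 0 of these were called between KO and WT in the main edgeR fit or by DESeq2. With the replicate block, edgeR called *Thbs1* and *Thbs2* in ESCs, in a fit that called 308 genes higher and 205 lower. No label states that the numbers pair the libraries. The counts that follow are those of the main fit. At an unadjusted p under 0.05 there were 2 in STR (*Thbs1* and *Thbs2*), 0 in NPCs and 0 in ESCs. In ESCs none of the 15080 genes passed the FDR (0%), *Phf8* included, with 108 genes higher and 63 lower at an unadjusted p under 0.05.

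ESCs held by far the most thrombospondin RNA, and nearly all of the spread lay between replicate numbers. *Thbs1* measured 130 CPM in WT replicate 1 and 2235 in WT replicate 2, a ratio of 17.2, and 137 and 2673 CPM in KO, a ratio of 19.5. *Thbs2* measured 4.42 and 144 CPM in WT and 5.13 and 181 CPM in KO, with ratios of 32.6 and 35.4. The pentameric *Thbs3* moved little, with ratios of 1.23 and 1.13. The trimeric pair was thus far higher in replicate 2, by a similar ratio in each genotype.

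The same libraries differed in markers of other cell types. The summed CPM of 8 markers of fibroblasts, meninges or feeder cells was 158 and 149 in replicate 1 (WT and KO) and 3559 and 4354 in replicate 2. That of 6 mural cell markers was 83.2 and 94.2 in replicate 1 and 910 and 1132 in replicate 2. None of the fibroblast or mural markers was at 0 in either genotype. The 5 pluripotency markers differed far less, with 2890 and 2796 CPM in replicate 1 and 2513 and 2363 CPM in replicate 2. Fibroblasts are a known source of *Thbs1* and *Thbs2*, and the cultures were kept on gelatin or feeder cells, but the part of such cells in these levels was not tested. Between KO and WT, in the fit without a replicate block, the log2 fold changes of *Thbs1* and *Thbs2* were 0.27 (SE 2.06) and 0.34 (SE 2.32), with adjusted p = 1.0 for both.

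**Figure D4:**
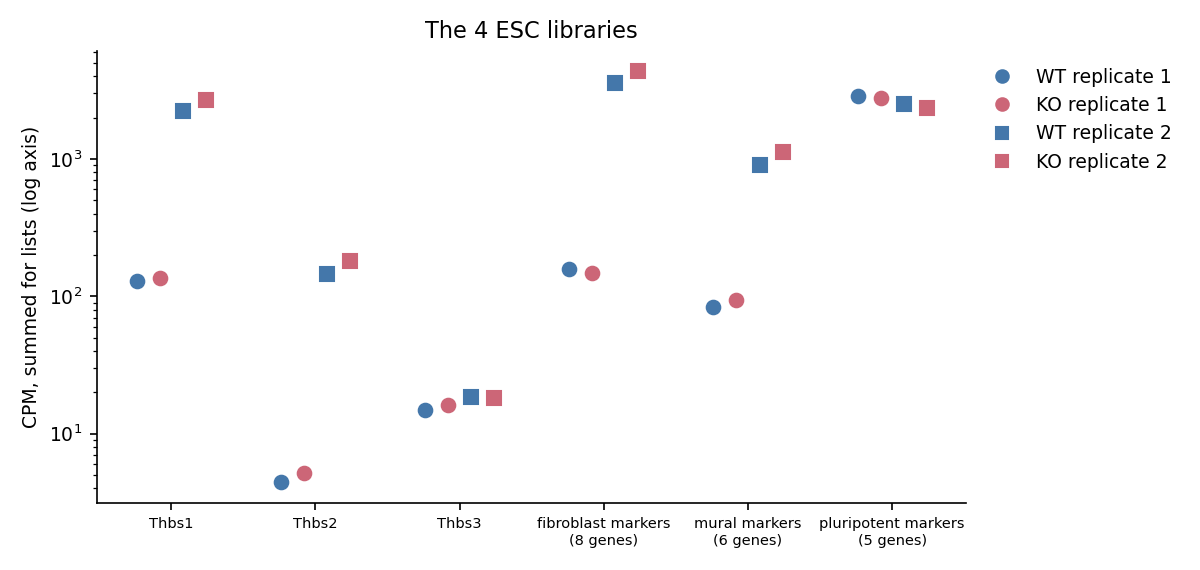
CPM of *Thbs1*, *Thbs2* and *Thbs3* and the summed CPM of 3 marker lists (log axis) in the 4 ESC libraries, with replicate 1 as circles and replicate 2 as squares. *Thbs1*, *Thbs2*, fibroblast and mural markers are all higher in replicate 2 of both genotypes, whereas *Thbs3* and the pluripotency markers differ little between the 4 libraries.

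Between the WT cultures, *Thbs1* was lower in NPCs than in ESCs, with a log2 fold change of -9.60 (SE 1.44, adjusted p = 0.0027). NPCs held 1.64, 1.39 and 1.33 CPM and every library was under both ESC libraries, as for 44.8% of genes. Without the fibroblast-rich WT ESC replicate 2 the value was -6.41 (adjusted p = 3.4e-04), so the direction did not rest on that library while the size did. *Thbs2* gave -3.04 (SE 1.63, adjusted p = 0.148) with that library and 1.02 (adjusted p = 0.643) without it, a change of sign, and neither passed. *Thbs3* did not differ detectably (-0.05, SE 0.29, adjusted p = 0.877). In this comparison 71.2% of 15938 genes passed the FDR, 36.6% as lower in NPCs, so a call is the common outcome.

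In PFC, the fall of *Thbs4* stood beside a lower level of oligodendrocyte markers. The summed CPM of 8 such markers, genes of the myelin sheath among them, was 1899 to 2471 in WT and 1519 to 1632 in KO. Of the 8, 5 passed the FDR as lower in KO, as did 0.475% of all genes. The number of all genes called lower in PFC, 73, ran from 2 to 115 when 1 library was left out. It was 2 without KO replicate 2 and 2 without KO replicate 3. Neither of these fits kept any of the 5 marker calls, nor the call of *Gfap* given below. *Mog*, a myelin surface protein, had a log2 fold change of -0.95 (SE 0.10) and *Ermn*, a cytoskeletal protein of oligodendrocytes, one of -0.84 (SE 0.12). *Mbp*, the most abundant of the 8, did not pass, at -0.16 (SE 0.12). Of 8 astrocyte markers only *Gfap*, an intermediate filament protein, passed, at -0.49 (SE 0.07), and the summed level of the list was 2175 to 2407 CPM in WT and 2122 to 2235 CPM in KO. None of the oligodendrocyte or astrocyte markers was at 0. Other lists also differed between these libraries, with no marker past the FDR. All 6 endothelial markers (median log2 fold change -0.28) and all 6 mural markers (-0.24) were on the lower side, and the 5 markers of choroid plexus and ependyma that were tested had a median of -0.49. The sum of 3 markers of olfactory bulb projection neurons was 24.9, 4.99 and 4.22 CPM in WT and 31.8, 30.1 and 10.2 CPM in KO. The part of these cells in the *Thbs4* level was not tested. Per 1000 CPM of the oligodendrocyte sum, *Thbs4* stood at 4.93 to 7.95 CPM in WT PFC and at 1.88 to 2.24 CPM in KO PFC. Since these libraries chose *Thbs4*, the PFC ratio is a description and nothing is read from its separation. In bulk tissue fewer cells of a type and less RNA per cell cannot be told apart, and the part of oligodendrocytes in the *Thbs4* level was not tested. In STR the oligodendrocyte sum was 1621 to 1877 CPM in WT and 1496 to 1902 CPM in KO, and *Thbs4* per 1000 CPM was 2.15 to 3.77 in WT and 1.11 to 2.63 in KO, with overlap in both.

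**Figure D5:**
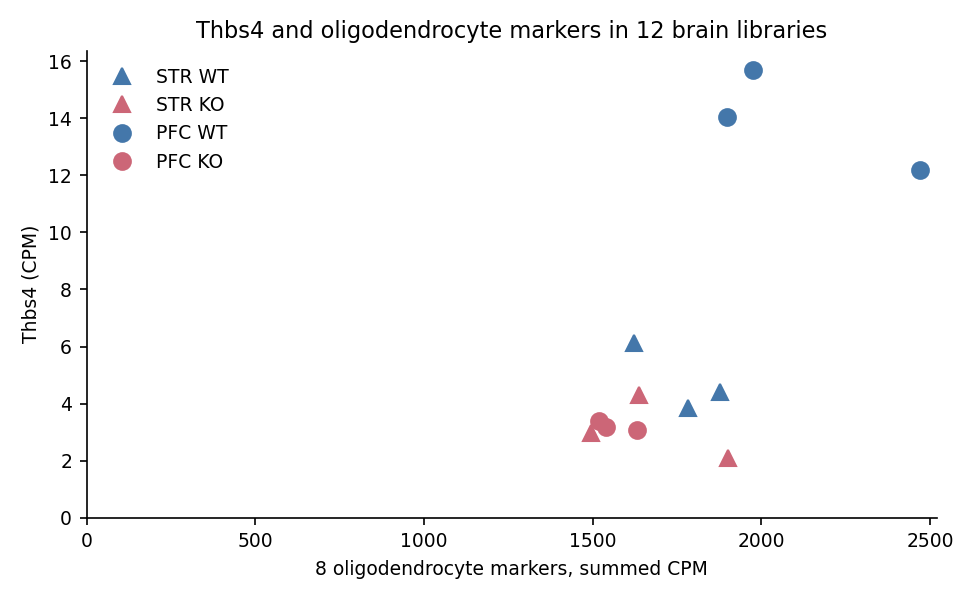
*Thbs4* (CPM) against the summed CPM of 8 oligodendrocyte markers in the 12 brain libraries, with circles for PFC, triangles for STR, blue for WT and red for KO. WT PFC lies apart at 12.2 to 15.7 CPM of *Thbs4*, while STR libraries with marker sums of up to 1902 CPM hold no more than 6.12 CPM.

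Genes whose brain profile was most like that of *Thbs4* were sought among 14953 genes, by Pearson's r on log2(CPM + 0.5) over the 12 brain libraries. *Fancc*, a DNA repair gene, was nearest (r = 0.93), followed by *Sypl* (0.90), *D17H6S53E* (0.89), the cadherin *Cdh19* (0.89) and *A730020E08Rik* (0.88). Their differences in PFC were smaller than that of *Thbs4*: *Fancc* had a mean of 19.4 CPM in WT and 14.0 CPM in KO, and *Cdh19* 13.9 and 9.28 CPM. Without STR KO replicate 1 only *Fancc* remained among the nearest 5. Once each group's mean was subtracted, the nearest 5 were *Lrrc39*, *Flrt2*, *Ythdc2*, *Tkfc* and *9630001P10Rik* (r = 0.92 to 0.93), and none of these remained without that library. The other members were not like *Thbs4*: over the same libraries r was -0.46 for *Thbs1*, 0.17 for *Thbs2* and -0.52 for *Thbs3*. With group means subtracted, r was -0.60, -0.54 and 0.18 in the same order. The points share tissue, genotype and library, and the levels hold the PFC fall that chose *Thbs4*. These values are thus a description of 12 libraries.

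In the main edgeR fit, no gene near *Thbs4* passed the test between KO and WT in any tissue. Within 1 Mb of its start lie 19 protein-coding genes with counts, of which 15 passed the filter in PFC. None was called there (0 at an unadjusted p under 0.05 and 0 by DESeq2), and their log2 fold changes ran from -0.23 to 0.10. The nearest on either side, *Mtx3* and *Serinc5*, had -0.06 (SE 0.07) and -0.21 (SE 0.11). In STR 14 were tested and 0 called, with 3 at an unadjusted p under 0.05, and DESeq2 called 1. The largest difference there was that of *Homer1*, a scaffold of the postsynaptic density, at -0.54 (SE 0.14, adjusted p = 0.411). In NPCs 13 and in ESCs 11 were tested, and 0 were called in each by edgeR or DESeq2, with 0 and 1 at an unadjusted p under 0.05. Over all genes 0.638% passed the FDR in PFC, 0.00697% in NPCs and 0% in STR and ESCs. For so few neighbours, 0 calls is thus the common outcome.

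In the main edgeR fit, no receptor or partner of the thrombospondins passed the test between KO and WT in any tissue. Over all genes 0% passed the FDR in STR, 0.638% in PFC, 0.00697% in NPCs and 0% in ESCs, so 0 calls is common for so short a list. Of 23 receptor and partner genes 23 were tested in STR, 22 in PFC, 23 in NPCs and 20 in ESCs, and 0 passed the FDR in each, by DESeq2 as well. At an unadjusted p under 0.05 there were 4, 2, 0 and 0. Their median log2 fold change was 0.03 in STR, 0.05 in PFC, 0.06 in NPCs and 0.04 in ESCs, beside medians over all genes of 0.0020, -0.020, 0.0032 and 0.0090. Among the core receptors (*Cacna2d1*, *Cd47*, *Cd36*, *Lrp1*, *Itgb3* and the synaptic partner *Nlgn1*), values in STR ran from -0.31 (SE 0.27) for *Itgb3* to 1.19 (SE 0.58) for *Cd36*, the scavenger receptor, which had 0.82 ± 0.30 CPM in WT and 1.84 ± 1.41 CPM in KO. Without STR KO replicate 1, the library with the most hypothalamic marker RNA, the value for *Cd36* was 0.37. In PFC they ran from -0.03 (SE 0.11) for *Cd47* to 0.19 (SE 0.08) for *Nlgn1*, among the 5 that were tested. In NPCs they ran from -0.30 (SE 0.29) for *Cacna2d1* to 0.34 (SE 0.47) for *Cd36*. In ESCs they ran from -0.0037 (SE 0.53) for *Lrp1* to 0.40 (SE 0.31) for *Cacna2d1*, among the 4 tested. With the replicate block *Cacna2d1* passed in ESCs (0.40, adjusted p = 0.0288 in edgeR), in a fit that called 308 genes higher and 205 lower.

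Other proteins with the type 1 repeats of thrombospondin gave 1 call in all between KO and WT. Of 30 genes 26 were tested in PFC, and *Rspo2*, a secreted enhancer of Wnt signalling, was the single call, with 42.8 ± 3.99 CPM in WT and 61.3 ± 5.82 CPM in KO (log2 fold change 0.51, SE 0.10, adjusted p = 0.048). DESeq2 called 4 of the 26. In STR 0 of 26 passed, with DESeq2 calling *Unc5d*, a netrin receptor, which had the smallest p of the lists in STR (0.58, SE 0.11, adjusted p = 0.291 in edgeR). In NPCs 0 of 20 and in ESCs 0 of 25 passed in the main edgeR fit or DESeq2. At an unadjusted p under 0.05 there were 10 in PFC, where 727 genes were higher and 998 lower of the 15364 tested, 3 in STR, 1 in NPCs and 0 in ESCs. The list's median log2 fold change was 0.06 in PFC, 0.03 in STR, 0.09 in NPCs and 0.30 in ESCs. Medians over all genes were -0.020, 0.0020, 0.0032 and 0.0090 in the same order. The fibroblast marker sum in ESCs was 4354 CPM in KO and 3559 in WT for replicate 2, and 149 and 158 CPM for replicate 1. The part of such cells in the list's ESC median was not tested.

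Secreted synapse inducers and matricellular proteins showed 0 calls of 20 in STR, 20 in PFC, 17 in NPCs and 13 in ESCs, with 6, 2, 2 and 0 at an unadjusted p under 0.05 and 1, 0, 0 and 0 calls by DESeq2. Over all genes 0.638% passed the FDR in PFC and at most 0.00697% in the other tissues. *Nptx2*, an activity-regulated pentraxin at excitatory synapses, measured 94.1 ± 21.9 CPM in WT STR and 57.5 ± 7.87 CPM in KO STR (log2 fold change -0.70, SE 0.17, adjusted p = 0.397), and DESeq2 called it. In NPCs the smallest p-values belonged to *Spp1* (osteopontin), at 0.82 (SE 0.17), and *Chrdl1*, an astrocyte-secreted BMP antagonist, at 0.34 (SE 0.13), each with an adjusted p = 1.0. In ESCs they belonged to *Apoe* (0.27, SE 0.12) and the semaphorin *Sema5a* (0.47, SE 0.26), again with an adjusted p = 1.0. With the replicate block *Apoe* passed in ESCs (adjusted p = 5.4e-05 in edgeR). The median of this list was 0.11 in STR, -0.0015 in PFC, 0.06 in NPCs and 0.17 in ESCs.

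Among 7 proteases that cut thrombospondins, 5 were tested in PFC and *Adamts4* passed as lower in KO, from 43.2 ± 8.60 to 27.3 ± 2.65 CPM (log2 fold change -0.69, SE 0.14, adjusted p = 0.048). *Adamts4* encodes an aggrecanase that is also made by oligodendrocytes, whose markers were lower in the same libraries. In STR 0 of 5, in NPCs 0 of 7 and in ESCs 0 of 7 passed, with 0 at an unadjusted p under 0.05 in each and 0 by DESeq2. Over the 4 lists together, 2 of 73 genes tested in PFC passed, or 2.74%, where 0.638% of all genes did. Both calls were lost with all 22 libraries fitted together (adjusted p = 1.0 for *Rspo2* and 0.789 for *Adamts4* in edgeR) and without robust estimation of the spread (adjusted p = 0.057 for *Rspo2* and 0.0597 for *Adamts4* in edgeR). They were also lost without any one of the 3 KO libraries or without WT replicate 2, that of *Rspo2* without WT replicate 1 and that of *Adamts4* without WT replicate 3, with an adjusted p of up to 0.313 and 0.306.

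Between the WT brain regions the same lists differed often, as did genes in general. Of 73 list genes tested, 22 were higher and 11 lower in PFC, or 45.2%, beside 24.4% of all genes. *Rspo2* was highest in relative terms in PFC (log2 fold change 3.12, SE 0.18), followed by *Ccn4*, a matricellular Wnt target (2.63, SE 0.24), the synaptic organizer *Cbln2* (1.64, SE 0.22) and the integrin *Itga4* (1.46, SE 0.28). Lower in PFC were the matrix protein *Postn* (-1.90, SE 0.26), the channel subunit *Cacna2d2* (-1.40, SE 0.09), *Thsd7a* (-1.21, SE 0.16) and *Sema5b* (-1.07, SE 0.18). Each of these 8 passed the FDR, with an adjusted p from 1.02e-06 to 0.0031. Of the core receptors *Itgb3* (1.22, SE 0.21, adjusted p = 0.0019) and *Cacna2d1* (0.33, SE 0.10, adjusted p = 0.035) were higher in PFC. The call of *Cacna2d1* was lost without any one of the STR libraries or without PFC replicate 1 (adjusted p of up to 0.142). With all 22 libraries fitted together, the calls of *Cacna2d1*, *Cbln2*, *Postn* and *Thsd7a* were lost (adjusted p from 0.0592 to 0.448).

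Between the WT cultures 52 of 73 list genes passed, 35 higher and 17 lower in NPCs, which at 71.2% was the share over all genes. The synaptic adhesion gene *Nlgn1* (13.0, SE 0.28), the perineuronal net protein *Tnr* (10.7, SE 1.65), *Sparcl1* (hevin, 9.51, SE 0.59) and *Chrdl1* (8.10, SE 0.25) had the highest log2 fold changes in NPCs. *Ccn2* (-8.56, SE 0.65), *Ccn5* (-6.45, SE 1.46), *Spp1* (-5.87, SE 0.25) and *Postn* (-5.31, SE 1.45) had the lowest. *Postn*, a fibroblast product, was at -0.98 (adjusted p = 0.0941) once the fibroblast-rich WT ESC replicate 2 was left out, and its call was also lost without any one of the 3 NPC libraries. *Ccn5* was at -3.09 without the same ESC library, and its call was lost without WT NPC replicate 2 (adjusted p = 0.0673). Among the core receptors *Cacna2d1* (2.81, SE 0.40), *Cd47* (2.15, SE 0.31) and *Cd36* (3.09, SE 0.59) were also higher in NPCs, and *Itgb3* was lower (-1.45, SE 0.44). The call of *Itgb3* was lost without WT ESC replicate 2 (-0.60, adjusted p = 0.155) and without any one of the NPC libraries.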

How the data were processed

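RNA was sequenced by the authors from WT and *Phf8* KO cells and brain regions of the mouse, in 22 libraries. Per the labels and the study's methods, the authors called bases with CASAVA 1.7, aligned reads to mm10 (GRCm38) with STAR and summarised them with HTSeq over the genes of Ensembl release 75. The deposited files hold the resulting whole-number counts, which were not normalized. Rows that name no gene, 20.2% to 53.1% of each library, were left out of totals and tests. Of 39179 identifiers, 37607 matched the annotation used for symbols and exon lengths (GENCODE M21, GRCm38), and these held 99.7% of counts.

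Each comparison was fitted across all genes with edgeR 4.0.16 (R 4.3.3): filter on low counts, TMM scaling, robust quasi-likelihood F test, Benjamini-Hochberg adjustment over all genes tested, and a call at an adjusted p under 0.05. The script was tested on simulated data. DESeq2 1.42.0, RLE size factors, no filter, no robust estimation, a replicate block, all 22 libraries together and each library left out were alternatives. The family and the gene lists were chosen with earlier results of these data known. Named genes were the 5 members, the 6 core receptors, and per comparison of KO with WT the called list genes or, with none, the 2 with the smallest p, the neighbours of *Thbs4* within 1 Mb and the 5 genes most like it. Between WT tissues the 4 highest and 4 lowest called list genes were named. Same-numbered NPC libraries deviated together from their group means (r = 0.598, 0.739 and 0.555), against -0.61 to 0.352 between different numbers. No label states a pairing, and in NPCs the replicate block changed no call of a member. No 2 libraries of a group agreed within sampling noise. The intervals of fold changes come from the fit, and the floor of 3 counts covers counting error only.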

Additional observations from a re-analysis of the deposited data

Results flagged for a closer look

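*Thbs4* had KO and WT libraries that did not overlap, in opposite order, in ESCs and PFC. Every KO library was above every WT library in ESCs, with a log2 fold change of 0.66 (95% interval -0.71 to 2.03) from 5 to 9 counts per library, and every KO library was below every WT library in PFC, with a log2 fold change of -2.13. Of the genes tested, 11.5% had every KO library higher in ESCs and 8.39% had every KO library lower in PFC. The difference between the tissues was not tested, since the PFC libraries chose the gene and its ESC counts did not pass the filter on low counts. Nothing is read from the opposite order.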

How the results depend on the processing

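The fold change of *Thbs4* kept its direction in STR under all alternatives (-0.90 to -0.40 with 1 library left out, -0.63 with the replicate block, adjusted p from 0.384 to 0.999) and in PFC (-2.21 to -2.03 with 1 library left out, -2.13 with the replicate block). The number of members called between KO and WT ESCs went from 0 to 2 with the replicate block (*Thbs1*, 0.18, adjusted p = 0.0288, and *Thbs2*, 0.34, adjusted p = 0.0030), which called 308 genes higher and 205 lower. Same-numbered ESC libraries deviated together (r = 0.895), but 2 pairs do not show that the numbers pair the libraries, and in STR (r = 0.0059 to 0.131) and PFC (-0.0378 to 0.0844) they share only a number. The block changed no other call of a member. Between WT NPCs and ESCs the calls went from 1 to 2 without the filter (*Comp* added) and to 3 with all 22 libraries fitted together (*Comp* and *Thbs2* added, the latter with an adjusted p = 0.0326), and there *Thbs3* turned to 0.0085 with the replicate block. Between WT PFC and STR they went from 2 to 1 with all 22 libraries together. Of the 5 genes most like *Thbs4*, 1 (levels) and 0 (deviations) were kept without STR KO replicate 1. The cause of these shifts was not tested.

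With 1 library left out, uncalled log2 fold changes crossed 0 for *Thbs3* in STR (-0.50 to 0.072), for *Thbs1* (-0.18 to 0.24), *Thbs3* (-0.023 to 0.40), *Cacna2d1* (-0.50 to 0.045) and *Cd36* (-0.068 to 0.72) in NPCs, for *Thbs1* (-3.18 to 3.50), *Thbs2* (-3.93 to 4.45), *Thbs3* (-0.12 to 0.23) and *Lrp1* (-0.63 to 0.50) in ESCs, for *Cd47* in PFC (-0.13 to 0.046), and for *Thbs2* (-3.99 to 1.02) and *Thbs3* (-0.33 to 0.084) between the WT cultures. Where an arm was left with 1 ESC library, that library is assumed to vary like the others. Over all genes, PFC calls ran from 0 to 137 higher (25 as reported) and from 1 to 242 lower (73 as reported), STR calls up to 38 higher and 15 lower with DESeq2, and NPC calls from 0 to 4 lower. Among list genes in ESCs, calls over the alternative fits ran from 0 to 1 for receptors and partners and from 0 to 2 for type 1 repeat genes. They ran from 0 to 1 for synapse inducers and from 0 to 1 for proteases. In PFC the same 4 lists had 0 to 1, 0 to 8, 0 to 1 and 0 to 1. Low counts limit *Thbs4* in cultured cells and *Comp* everywhere.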
